A study of Rattus norvegicus with 6 samples.

Results

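Gene expression in 3 linings of the brain ventricles was set against total brain of the rat. The 3 linings were the ependyma in the wall of the third ventricle, the subcommissural organ and the subfornical organ, each read on 1 array, and total brain was read on 1 array. These 4 samples were taken from 6 in the series, and the other 2 arrays, both of the pineal gland, are given as a reference from outside the comparison. All 6 came from male adult Sprague-Dawley rats labelled as normal, and the labels give no treatment or genetic change for any group. The labels describe each of the 3 lining samples as a pool of 2, and the total brain sample as a reference pool of normal rat brains. The linings and the pineal gland were cut from sections with a laser, the ventricular wall at a distance from both organs, and 3 ng of total RNA was amplified and labelled for one-colour arrays. No lining and no brain sample was repeated, so the difference of a lining from total brain had no replicate check, and all 3 differences of a gene share the same brain array. Total brain was also the only sample not named as cut with a laser, so tissue and preparation cannot be told apart in these differences.

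The genes described are those for which all 3 linings lay on the same side of total brain. For each gene the difference of every lining from total brain was taken on the log2 scale, and the smallest of the 3, called the smallest gap, was kept where all 3 had the same sign. A gene is called shared where its smallest gap was at least 4-fold, which is 2 on the log2 scale. These gaps chose the genes, so they are given as a description. Intensities are on the authors' scale, on which the median probe of every array lay near 1.05, and values under 0.142 were raised to that floor. The limit of 4-fold was applied to these floored values. Where a fold is given for a gene with a side under 1.05, it is a lower bound, computed with that side raised to 1.05 and written as "at least".

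The cavities of the brain are lined by ependymal cells, most of which carry tufts of motile cilia that move the cerebrospinal fluid. A motile cilium is built on doublet microtubules, which hold protein inside their walls and carry dynein motors, radial spokes and the nexin-dynein regulatory complex around a central pair. RFX factors and the forkhead factor FOXJ1 are the regulators best known for switching on the genes of these parts. The subcommissural organ is a gland of tall ependymal cells that secretes SCO-spondin, and the subfornical organ is a sensory organ of neurons and glia beneath a thin ependyma, open to blood-borne signals. The pineal gland secretes melatonin and is not a lining of the ventricle.

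Of 12167 genes with a probe of their own, 8651 were bright enough to be compared. On all 3 linings 1635 of these (18.9%) lay above total brain by any amount and 3753 (43.4%) lay below it, and for 3263 the linings fell on both sides. At 4-fold, 196 genes were shared higher, which is 2.27% of the genes compared, and 242 were shared lower, which is 2.8%. The middle of all genes did not lie at 0, since the median difference from total brain was -0.38 in the subcommissural organ, -0.28 in the subfornical organ and -0.47 in the ependyma. The split between the directions moves with this: quantile normalization gave 215 genes higher and 150 lower, and scaling each array to its 75th percentile gave 279 higher and 131 lower. The 2 pineal gland arrays, of 1 tissue, differed from each other by 4-fold or more for 196 genes, or 2.27% in either direction together. The SD of their log2 differences was 0.74. The genes compared were chosen by the brightness of the linings and total brain, so the pineal values could be dim. The pineal count also takes 2 arrays in either direction, while a shared call needs 3 linings on 1 side. The 2 counts of 196 are therefore unlike measures and are not to be set against each other.

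**Figure D1:**
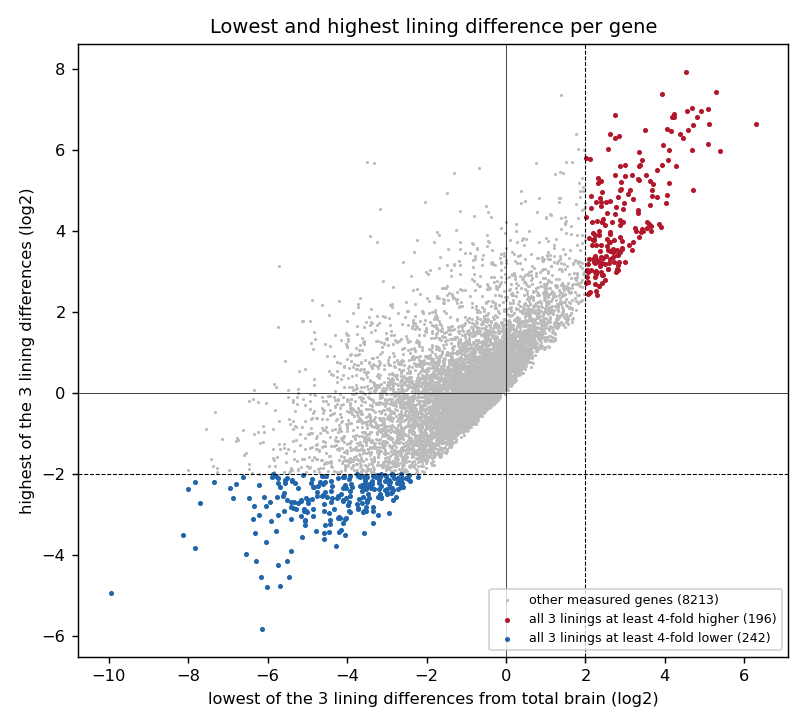
Each point is 1 of 8651 genes, with the lowest of the 3 lining-minus-brain differences on the horizontal axis and the highest on the vertical axis, both in log2 units. The 196 genes shared higher stand at the right and the 242 shared lower at the bottom, beyond the lines at 4-fold, and the grey points between them did not reach 4-fold on all linings.

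The test across all genes called none of them. With limma, the 3 linings formed 1 side, the pineal pair another and the lone brain array the last, so the spread came mostly from differences between structures and the brain array was assumed to vary like them. At an adjusted p under 0.05 limma called 0 of 8651 genes (0%), the smallest adjusted p was 0.0893, and 1314 genes (15.2%), 459 higher and 855 lower, had an unadjusted p under 0.05. Without the subfornical organ array, limma called 32 genes higher and 6 lower. The counts of each gene list below are set beside these shares of all genes. The words higher and lower below therefore state where the arrays lay, and no gene below passed this test.

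The structural genes of motile cilia stood above total brain in every lining for almost the whole measured list. Of 90 listed genes 31 were on the array under these names and 26 were measured. Among these 26, 9 were shared higher at 4-fold and 0 were shared lower, beside 2.27% and 2.8% of all genes, and 23 lay above total brain in all 3 linings by any amount, beside 18.9% of all genes. The median member exceeded total brain by 3.73 on the log2 scale in the subcommissural organ, by 1.33 in the subfornical organ and by 4.17 in the ependyma, where all genes had medians of -0.38, -0.28 and -0.47. With quantile normalization or scaling to the 75th percentile, 12 members were shared higher and 25 lay above total brain in all 3 linings.

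Both genes named as markers of the linings behaved this way. Dynlrb2, a light chain of the dynein motors, read 490 in the subcommissural organ, 157 in the subfornical organ and 574 in the ependyma, against 13.7 in total brain and 0.387 and 1.84 in the pineal gland. Every lining was thus 11.4-fold or more above the brain, and the lowest lining stood 85.7-fold above the higher pineal array. The mean of the linings lay 4.68 ± 1.10 (SE) above total brain on the log2 scale (limma, adjusted p = 0.171). Tekt1, a tektin filament protein inside the doublet wall, read 191, 47.1 and 233 in the linings in the same order, against 6.33 in total brain and 0.453 and 0.848 in the pineal gland. Its smallest gap was 7.45-fold and its mean difference 4.34 ± 0.995 (SE; limma, adjusted p = 0.163). For both genes the subfornical organ was the lowest of the 3 linings and none overlapped the brain value.

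The promoters of 4 of these genes are shown because RFX and forkhead factors are the known regulators of cilia genes. Beside the 2 markers, Drc1 and Lrrc23 were taken as the cilia genes of the widest gap that held a match to the letters searched for. That these 2 hold a match was therefore fixed by the choice. Each runs 5′ to 3′ on the gene's strand, from 250 bases before the start of the gene to 50 after it, in RefSeq's GRCr8 assembly of the rat. Capitals mark the letters GTTGCC or their reverse complement GGCAAC, a half-site that RFX proteins bind. Only these exact letters were searched for, and variants of the site were not. Dynlrb2 lies on the plus strand at chr19:61428830-61429129, Tekt1 on the minus strand at chr10:57479072-57479371, Drc1 on the minus strand at chr6:31779207-31779506 and Lrrc23 on the minus strand at chr4:159277715-159278014.
Dynlrb2: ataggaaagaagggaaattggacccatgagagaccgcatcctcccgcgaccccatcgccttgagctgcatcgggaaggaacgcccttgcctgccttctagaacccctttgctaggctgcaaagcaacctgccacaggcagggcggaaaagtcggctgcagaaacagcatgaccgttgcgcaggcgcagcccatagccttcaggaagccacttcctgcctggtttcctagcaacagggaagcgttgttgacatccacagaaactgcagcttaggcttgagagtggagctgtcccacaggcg
Tekt1: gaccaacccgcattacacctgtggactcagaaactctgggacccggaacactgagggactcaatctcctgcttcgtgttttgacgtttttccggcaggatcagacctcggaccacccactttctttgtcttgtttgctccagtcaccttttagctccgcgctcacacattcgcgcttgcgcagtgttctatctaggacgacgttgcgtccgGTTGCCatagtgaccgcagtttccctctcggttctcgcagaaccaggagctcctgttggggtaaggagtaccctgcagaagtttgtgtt
Drc1: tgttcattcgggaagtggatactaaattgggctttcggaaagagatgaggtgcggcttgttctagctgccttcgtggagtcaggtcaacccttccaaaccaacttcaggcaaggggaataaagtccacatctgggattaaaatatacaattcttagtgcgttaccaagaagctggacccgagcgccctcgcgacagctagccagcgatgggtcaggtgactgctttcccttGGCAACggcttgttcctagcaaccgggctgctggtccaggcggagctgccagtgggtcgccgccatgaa
Lrrc23: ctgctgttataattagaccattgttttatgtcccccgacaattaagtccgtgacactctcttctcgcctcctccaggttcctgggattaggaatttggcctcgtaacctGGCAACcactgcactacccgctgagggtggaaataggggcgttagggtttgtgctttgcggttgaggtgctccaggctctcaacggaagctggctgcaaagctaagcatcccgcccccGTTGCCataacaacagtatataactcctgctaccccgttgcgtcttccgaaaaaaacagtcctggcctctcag
Dynlrb2 held 0 such matches, Tekt1 and Drc1 held 1 each, and Lrrc23 held 2. Since variants were not searched for, 0 matches does not mean that a promoter lacks an RFX site. Over the measured cilia genes with a promoter in the table, 9 of 23 (39.1%) held a match on either strand, beside 12.6% of 7212 measured genes, 12.2% of all 27457 promoters, 31 of 169 genes shared higher (18.3%) and 20 of 187 shared lower (10.7%). The forkhead letters TGTTTAC or GTAAACA were in 1 of the 23 cilia promoters, in 2.15% of measured genes, in 3.76% of all promoters, in 1.18% of genes shared higher and 0.535% of those shared lower, and in none of the 4 shown. A match describes letters in this window only, and its part in the levels was not tested.

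The cilia genes beyond the markers are described by the part of the axoneme they belong to. Drc1, a subunit of the nexin-dynein regulatory complex, read 209 in the subcommissural organ, 41.2 in the subfornical organ and 248 in the ependyma against 4.03 in total brain, a smallest gap of 10.2-fold. Akap14, an anchor for protein kinase A found in cilia, read 139, 17.3 and 64.4 against 1.54 in total brain, a smallest gap of 11.2-fold. Meig1, a protein known for its role in sperm formation, read 47.7, 10.4 and 44.2 against 0.679 in total brain, which is at least 9.94-fold. In all of them the subfornical organ was the lowest lining and both pineal arrays were lower still, none of the pineal values exceeding 1.30.

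The other shared members were Cfap77, Lrrc23, Ropn1l and Odad4, beside the markers and the 3 above. Cfap77, a protein inside the doublet wall, read 250, 73.3 and 259 in the linings against 10.8 in total brain. Lrrc23, a protein of the radial spoke head, read 239, 112 and 378 against 24.4 in total brain. Ropn1l, another radial spoke protein, read 7.55, 2.87 and 9.12 against 0.607, and Odad4, which docks the outer dynein arm, read 34.0, 7.30 and 39.2 against 1.65.

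The members that missed 4-fold on all linings did so mainly in the subfornical organ. At 4-fold, 23 of the 26 measured members lay above total brain in the subcommissural organ and 24 in the ependyma, but 9 in the subfornical organ. Hydin, a protein of the central pair, read 221 and 367 in the subcommissural organ and the ependyma and 61.1 in the subfornical organ, against 15.8 in total brain, a smallest gap of 3.86-fold. Cfap45, a protein inside the doublet wall, read 469, 46.6 and 441 against 21.8, and Tppp3, which binds microtubules, read 1183, 378 and 1093 against 283. The 3 members without a common side were Odad1, Spag6l and Tekt4. Spag6l, of the central pair, read 99.9 and 115 in the subcommissural organ and the ependyma against 9.72 in total brain, and 4.39 in the subfornical organ. Tekt4 had the same order with 100.3, 16.1 and 145 against 17.5 in total brain, and Odad1 stayed between 5.71 and 8.01 on all 4 arrays.

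**Figure D2:**
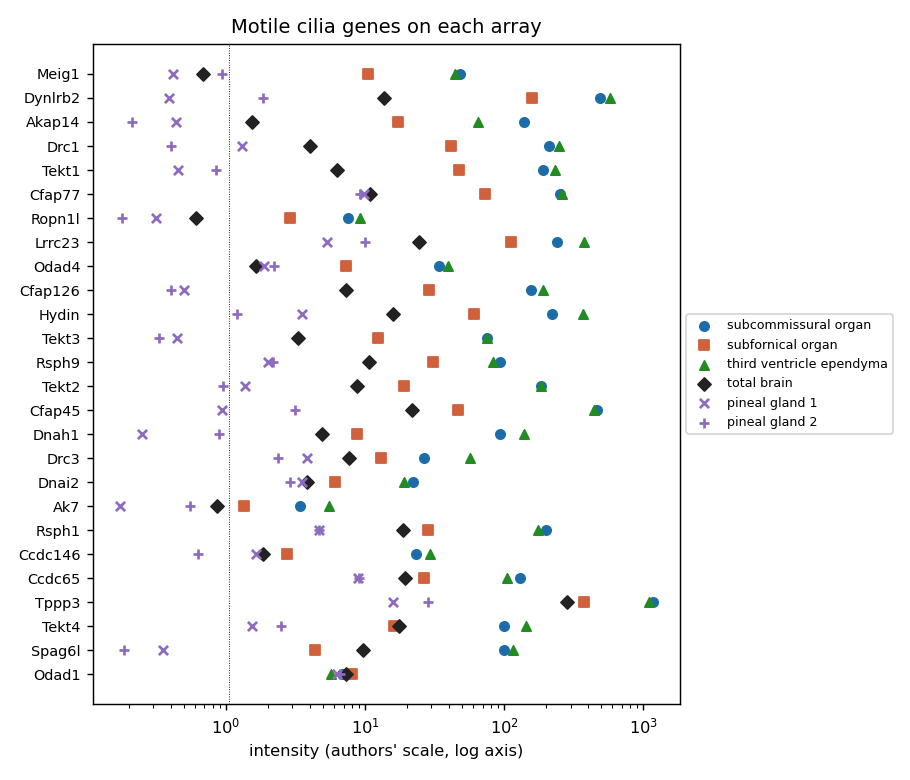
Intensity on a log axis of the measured motile cilia genes, 1 row per gene and 1 mark per array, with the dotted line at 1.05. The subcommissural organ and the ependyma lie furthest to the right for most genes, the subfornical organ between them and total brain, and the pineal arrays mostly at the left.

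Genes that build cilia in general showed smaller gaps than those of the motile axoneme. Of 28 measured genes of intraflagellar transport and the BBSome, the machinery that carries cargo along every cilium, 1 was shared higher at 4-fold, which is near the 2.27% of all genes, and 0 were shared lower. By any amount 16 lay above total brain in all 3 linings and 3 below, beside 18.9% and 43.4% of all genes. The 1 gene was Ift80, a subunit of the transport complex, which read 28.8, 31.5 and 29.9 in the linings against 5.92 in total brain and 8.79 and 1.97 in the pineal gland. Its linings differed by 1.09-fold at the most, and its smallest gap was 4.86-fold. The 3 lower members were Wdr19, Kif3b and Kifap3, and Kifap3, a partner of the kinesin that drives this transport, read 72.4, 72.6 and 106 against 199 in total brain.

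The regulators of cilia genes had 6 measured members, of which 0 were shared at 4-fold in either direction. Rfx2, one of the RFX factors, read 44.0, 22.1 and 44.7 in the linings against 6.98 in total brain and 1.41 and 0.360 in the pineal gland. Rfx1 read 22.1, 12.1 and 24.1 against 4.12 in total brain and 10.2 and 8.16 in the pineal gland. Their smallest gaps were 3.16-fold and 2.94-fold, both set by the subfornical organ. E2f4 and Rfx7 lay below total brain in all 3 linings, and 3 further probes of Rfx7 lay on the other side. Deup1, which builds the many centrioles of ciliated cells, read 71.7 and 20.2 in the subcommissural organ and the ependyma but 6.11 in the subfornical organ, against 6.64 in total brain.

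Other genes known from ependymal cells were less uniform. Of 23 measured, 4 were shared higher and 0 lower, beside 2.27% and 2.8% of all genes. By any amount 12 lay above total brain in all 3 linings and 3 below, beside 18.9% and 43.4%. Mlf1, a protein of ciliated cells, read 149, 30.1 and 164 in the linings against 5.80 in total brain. Cd24, a surface glycoprotein of ependyma and immature neural cells, read 20.7, 13.3 and 33.3 against 2.17. Sox2, a transcription factor of neural stem cells and ependyma, read 9.15, 5.50 and 5.74 against 1.16 in total brain, and 0.142, the floor, and 0.325 in the pineal gland. Tmem212 was the remaining one, with 4.95, 2.77 and 8.23 against 0.547, at least 2.63-fold. Vim, an intermediate filament of ependyma and radial glia, was above total brain by less, with 377, 197 and 334 against 81.5.

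Cd24 and Sox2 were also the 2 shared genes among 18 measured genes of Notch signalling, stem cells and radial glia, beside 2.27% of all genes shared higher. In that list 7 members lay above total brain in all linings and 5 below, beside 18.9% and 43.4% of all genes, the latter being Msi1, Hey2, Heyl, Notch3 and Jag2.

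The widest gaps of all fell mostly on genes outside these lists. Atg101, which helps start autophagy, read 74.1, 58.4 and 58.4 in the linings and 63.3 and 54.1 in the pineal gland, against 0.744 in total brain. It was at least 55.6-fold higher in each lining, and limma on the floored values gave an adjusted p of 0.0893. Enkd1, a centriole protein that acts in cilium formation, read 103, 35.8 and 62.6 in the linings, 15.5 and 18.1 in the pineal gland and 1.04 in total brain, at least 34.1-fold. For both genes it was the brain array that stood apart from all 5 others. Those 5 were cut with a laser and total brain was a reference pool, so tissue and preparation cannot be told apart here.

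The brain array likewise stood apart for most of the 15 widest gaps. Plekhn1 read 45.8, 27.1 and 21.8 in the linings and 46.0 and 51.0 in the pineal gland against 0.640 in total brain. Pdlim3, a protein of the actin cytoskeleton, read 14.9, 55.7 and 19.4 in the linings and 19.5 and 21.8 in the pineal gland against 0.623. Cox16, an assembly factor of cytochrome c oxidase, C8g, the gamma chain of complement component C8, and Tmem35b followed, with gaps of at least 10.3-fold, at least 10.3-fold and at least 9.49-fold. Their linings lay between 9.97 and 15.8 and their pineal values between 9.40 and 28.1.

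Pierce2, a protein inside the doublet wall of motile cilia, read 56.0, 13.5 and 38.1 in the linings against 0.448 in total brain, at least 12.9-fold, with 4.81 and 5.20 in the pineal gland. Lrrc36 read 10.1, 9.67 and 49.4 against 0.376 in total brain, at least 9.20-fold. Igh-6l1 and Ip6k2 completed the 15, and the other measured probe of Ip6k2, an inositol phosphate kinase, had all 3 linings on the opposite side.

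**Figure D3:**
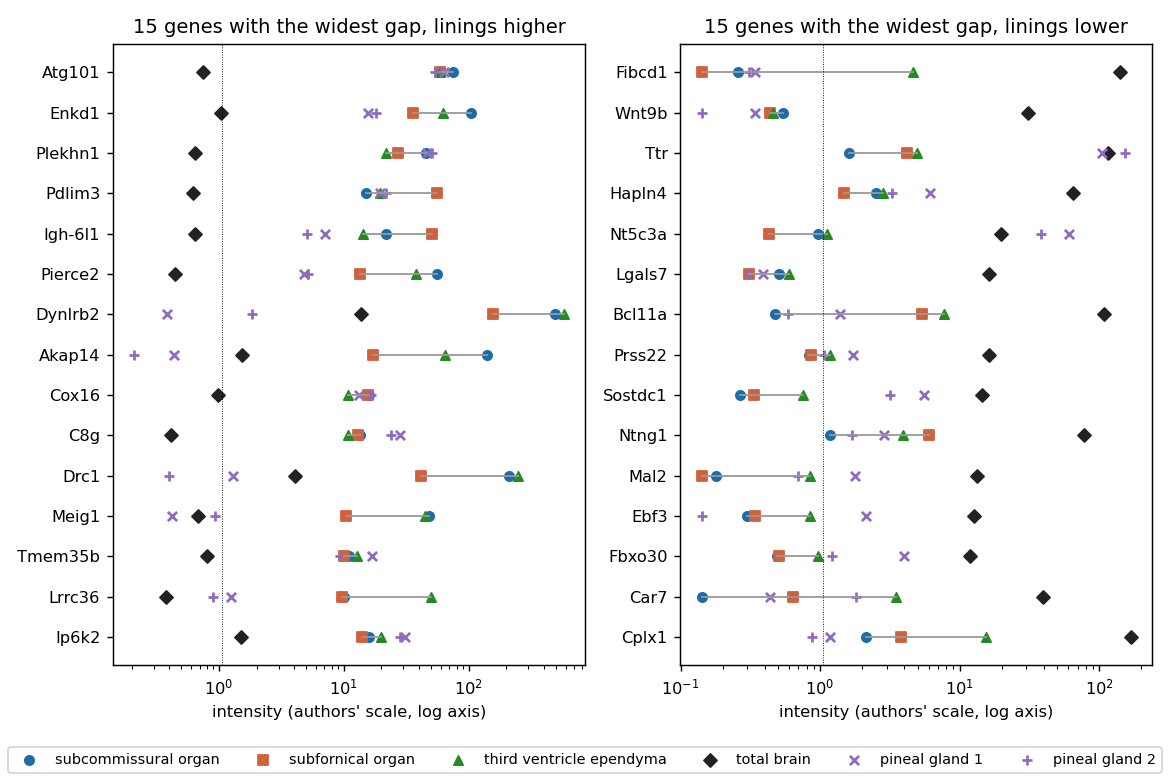
Intensity on a log axis of the 15 genes with the widest gap in each direction, ordered by the gap with values under 1.05 raised to 1.05 (dotted line), with a grey line over the 3 linings. Left, the brain mark lies left of all linings, and the pineal marks lie close to the linings for Atg101 and Plekhn1 but left of the brain for Dynlrb2. Right, Ttr has its pineal marks beside total brain.

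The pineal gland separated the genes shared higher into kinds. For 61 of the 196 both pineal arrays were at or above the lowest lining, and for 19 of these both were above the highest. Grtp1 was the extreme, with 7.27, 4.54 and 4.11 in the linings, 0.434 in total brain and 75.1 and 82.5 in the pineal gland. Gart, an enzyme of purine synthesis, read 32.7, 18.9 and 24.8 in the linings, 3.53 in total brain and 125 and 74.6 in the pineal gland, and a further probe of it did not place the linings on 1 side. Myh7b, a myosin heavy chain, Cpped1, a phosphatase, and Tmod4, a tropomodulin that caps actin, were the others of the 5 with the pineal gland farthest above the linings.

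For 42 of the 196 both pineal arrays lay at least 4-fold below the lowest lining on the floored values, and for 39 both lay under 1.05. The 42 thus include genes counted only through values under 1.05. Tmem212 is one, with 2.77 in its lowest lining and 0.412 and 0.231 in the pineal gland. Igfbpl1, a relative of the proteins that bind insulin-like growth factor, was among the 5 genes with the widest separation on the floored values. It read 95.5, 137 and 147 in the linings, 20.2 in total brain and 0.422 and 0.197 in the pineal gland. The other 4 were Dynlrb2, Tekt1, Pierce1 and Akap14, which code for proteins of motile cilia, and since both pineal values of all but Dynlrb2 and Pierce1 lay under 1.05, the 5 have no order among themselves or with genes near them. Pierce1, a protein inside the doublet wall, read 139, 53.9 and 173 in the linings, 8.10 in total brain and 1.23 and 0.597 in the pineal gland.

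The genes shared higher differed in how close the linings lay to each other. The range over the 3 linings had a median of 1.22 on the log2 scale among them, beside 1.11 over all genes, and was at most 2-fold for 80 of the 196. The tightest were Ift80, Ddb2, Ctf1, Purb and Spart. Ddb2, a DNA damage sensor, read 9.70, 10.8 and 9.46 against 0.632 in total brain, at least 9.01-fold, with 4.77 and 4.33 in the pineal gland. Ctf1, the cytokine cardiotrophin 1, read 7.55, 6.48 and 6.56 against 0.807.

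The widest were Itgb4, Col8a2, Cdca7, Shroom3 and Arhgef15. Itgb4, an integrin of epithelial attachment, read 4.48 in the subcommissural organ but 78.6 and 61.9 in the subfornical organ and the ependyma, against 0.671 in total brain. Col8a2, a collagen, had the reverse pattern with 51.7 in the subcommissural organ and 3.75 and 9.72 in the other linings against 0.925. Shroom3, which shapes the apical side of epithelial cells, read 67.3, 5.35 and 15.5 against 1.23.

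The subfornical organ most often came nearest to total brain, setting the smallest gap for 92 of the 196, with 65 set by the ependyma and 39 by the subcommissural organ. Taken alone, 552 genes were 4-fold higher in the subcommissural organ, 400 in the subfornical organ and 453 in the ependyma, and the shared genes made up 35.5%, 49% and 43.3% of these.

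In the other direction, every measured gene of the general neuron list lay below total brain in all 3 linings. Of 34 listed genes 26 were on the array and 21 were measured; 7 were shared lower at 4-fold and 0 higher, beside 2.8% and 2.27% of all genes, and 43.4% of all genes lay below in all linings. The median member lay 3.70 below total brain on the log2 scale in the subcommissural organ, 2.58 below in the subfornical organ and 1.94 below in the ependyma. With quantile normalization, and with scaling to the 75th percentile, 19 members lay below in all linings and 4 were shared. By the rule that chose the genes compared, any lining under 1.05 lay below total brain, so these counts are partly set by that rule. With no brightness filter the list median over the mean of the linings was -2.58 for all 26 genes, beside -3 for the 21 measured. In bulk samples fewer cells of a type and less RNA per cell cannot be told apart, and this holds for every list here.

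The neurofilaments and neuronal surface proteins had the widest gaps. Nefm, the medium neurofilament chain, read 0.437, 0.681 and 1.63 in the linings against 14.5 in total brain, 8.87-fold at the nearest lining, and limma on the floored values gave an adjusted p of 0.137. Nefl, the light chain, read 1.61, 1.80 and 5.83 against 38.6, and Ina, the internexin chain, read 5.26, 12.6 and 35.1 against 226. Thy1, a surface glycoprotein of neurons, read 11.9, 53.5 and 72.0 against 509, 7.07-fold at the nearest lining. In all of them the subcommissural organ was the lowest lining and the ependyma the highest, and the pineal values, from 0.324 to 7.12, lay below total brain. The median of the whole neuron list lay at -3.81 and -3.66 from total brain in the pineal gland arrays, so low values were not particular to the linings.

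**Figure D4:**
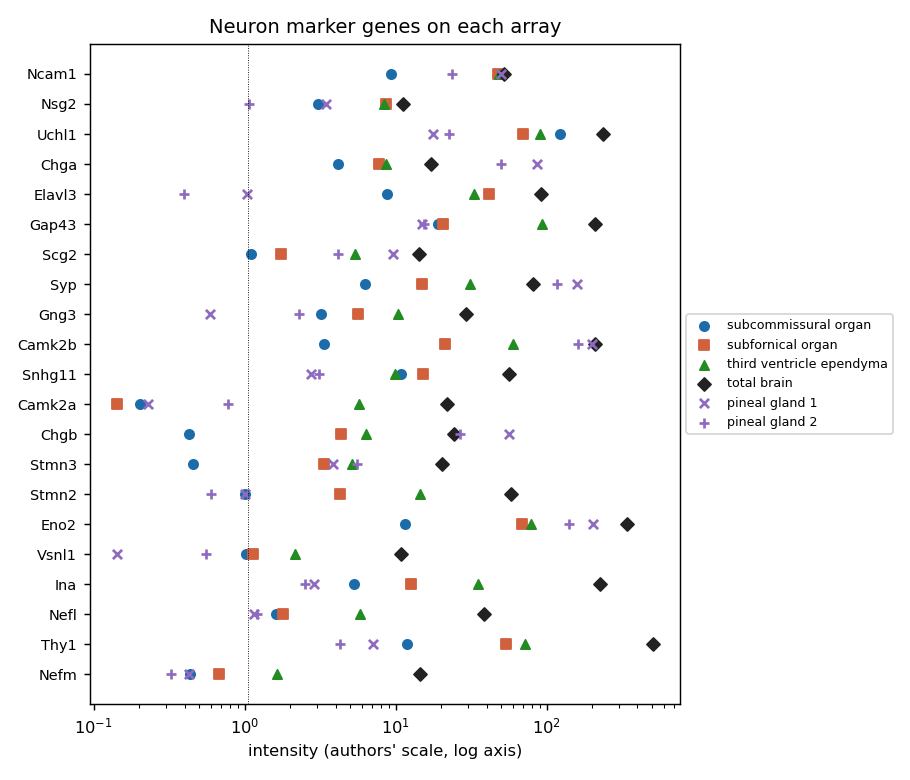
Intensity on a log axis of the 21 measured neuron genes, 1 row per gene and 1 mark per array, with the dotted line at 1.05. Total brain lies to the right of all 3 linings in every row, and the subcommissural organ is the leftmost lining in most rows.

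Genes of the synapse followed. Among 21 measured genes of synaptic vesicles and release, 7 were shared lower and 0 higher, beside 2.8% and 2.27% of all genes, and 17 lay below total brain in all 3 linings, beside 43.4%. Vamp1, a vesicle protein of membrane fusion, read 2.89, 5.03 and 4.08 in the linings against 52.0 in total brain and 7.52 and 10.3 in the pineal gland, at a mean difference of -3.74 ± 0.58 (SE; limma, adjusted p = 0.116). Cplx1, a complexin that clamps fusion, read 2.12, 3.81 and 15.3 against 169, and Bsn, a scaffold of the active zone, read 2.49, 3.28 and 8.63 against 51.6. Rab3a, a vesicle GTPase, read 3.95, 8.86 and 10.3 against 46.0. In the pineal gland arrays the median of this list lay at -1.46 and -2.04 from total brain. With quantile normalization, and with scaling to the 75th percentile, 3 of the list were shared.

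Receptors and ion channels showed the same side. Of 20 measured glutamate genes 4 were shared lower and 18 lay below total brain in all linings, and of 17 GABA genes 4 were shared lower and 13 lay below. Over all genes 2.8% were shared lower and 43.4% lay below in all linings. With quantile normalization, and with scaling to the 75th percentile, 2 genes of each list were shared. With no brightness filter the glutamate median over the mean of the linings was -1.49 for 31 genes, beside -2.30 for the 20 measured. The GABA median was -1.83 for 22 genes, beside -1.90. Gria3, an AMPA receptor subunit, read 3.47, 1.83 and 4.10 against 34.5 in total brain, and Grm4, a metabotropic glutamate receptor strong in cerebellum, read 0.218, 0.862 and 2.00 against 16.1. Gabrb2, a GABA-A receptor subunit, read 1.05, 0.229 and 2.18 against 18.8. Gad1, an enzyme that makes GABA, read 3.66, 5.37 and 4.96 against 24.0, with 17.0 and 14.6 in the pineal gland. Most of these genes were low in the pineal gland too. The pineal medians lay at -3.43 and -3.36 from total brain for the glutamate list, and at -2.51 and -2.91 for the GABA list.

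Slc17a7, the vesicular glutamate transporter of cortical neurons, read 0.344, 0.742 and 0.588 in the linings, 3.13 in total brain and 14.0 and 12.3 in the pineal gland. Dlgap1, a scaffold of the postsynaptic density, was the glutamate gene on the other side, with 21.2, 8.84 and 8.80 against 6.90.

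Among 29 measured voltage-gated channel genes 7 were shared lower and 0 higher, beside 2.8% and 2.27% of all genes, and 21 lay below total brain in all linings, beside 43.4%. Scn4b, a sodium channel beta subunit, read 0.665, 3.43 and 1.26 against 36.5 in total brain, 10.7-fold at the nearest lining, and limma on the floored values gave an adjusted p of 0.141. Its second measured probe also placed all linings more than 4-fold lower. Cacna2d3, a calcium channel subunit, read 0.690, 1.93 and 4.73 against 42.0, and Scn2a, a sodium channel, read 0.799, 3.01 and 4.58 against 28.6. In the pineal gland arrays the median of the list lay at -2.82 and -3.255 from total brain. With no brightness filter the list median over the mean of the linings was -1.74 for 36 genes, beside -2.835 for the 29 measured.

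Genes of forebrain regions were also lower. Fibcd1, a receptor known from pyramidal cells of the hippocampus, read 0.257 in the subcommissural organ, 0.142, the floor, in the subfornical organ and 4.60 in the ependyma, against 141 in total brain and 0.343 and 0.311 in the pineal gland. Its nearest lining was 30.6-fold below the brain. Of 19 measured forebrain genes 5 were shared lower and 14 lay below in all linings, beside 2.8% and 43.4% of all genes. Pde10a, a phosphodiesterase of striatal neurons, read 2.56, 9.08 and 14.7 against 96.4, with 55.6 and 31.2 in the pineal gland. Rxrg, a retinoid receptor, lay on the other side at 5.61, 9.76 and 6.36 against 1.95, and its pineal values were 106 and 68.5. The median of the forebrain list lay at -2.655 and -2.175 from total brain in the pineal gland arrays. With no brightness filter the list median over the mean of the linings was -1.39 for 25 genes, beside -2.539 for the 19 measured. Of 12 measured cerebellar genes 1 was shared lower and 8 lay below in all linings, beside the same 2.8% and 43.4%. The 1 gene was Grm4, already counted among the glutamate genes.

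The 15 widest lower gaps held genes of several kinds. Hapln4, a link protein of perineuronal nets, read 2.53, 1.49 and 2.82 against 65.1 in total brain, 23.1-fold at the nearest lining. Bcl11a, a transcription factor of cortical neurons, read 0.472, 5.34 and 7.68 against 108, and Ntng1, a netrin of axons, read 1.17, 6.01 and 3.90 against 77.4. Car7, a carbonic anhydrase of neurons, and Ebf3, a transcription factor, were also among the 15, as were Wnt9b, Lgals7, Prss22, Mal2 and Fbxo30. Wnt9b, a secreted Wnt ligand, read 0.543, 0.435 and 0.463 in the linings and 30.7 in total brain, at least 29.2-fold, and 0.339 and 0.142, the floor, in the pineal gland. Both pineal arrays also lay below total brain for all of the 15 but Ttr and Nt5c3a. Hapln4 read 6.12 and 3.29 there, and Bcl11a read 1.38 and 0.589. The brain array thus stood apart from all others for most of these genes, and tissue and preparation cannot be told apart here either.

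Choroid plexus genes lay on both sides of total brain. Of 17 measured, 3 were shared lower and 0 higher, beside 2.8% and 2.27% of all genes. By any amount 7 lay below total brain in all linings and 4 above, near the 43.4% and 18.9% of all genes. Ttr, transthyretin, the most abundant secreted product of choroid plexus, read 1.61, 4.17 and 4.97 in the linings, 116 in total brain and 104 and 152 in the pineal gland, with a mean difference of -5.18 ± 0.77 (SE; limma, adjusted p = 0.116). Sostdc1, a secreted antagonist of BMP and Wnt signals, read 0.269, 0.336 and 0.755 against 14.4, at least 13.7-fold, and Prlr, the prolactin receptor, read 0.428, 0.423 and 0.543 against 2.80. The members above total brain were Msx1, Calml4, Slc4a2 and Otx2. Otx2, a homeobox factor of choroid plexus and pineal gland, read 124, 42.2 and 23.7 in the linings, 19.4 in total brain and 214 and 140 in the pineal gland.

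Ttr was 1 of 18 genes shared lower whose pineal values both lay at least 4-fold above the highest lining on the floored values. The widest was Col8a1, a collagen, which read 0.719, 0.841 and 0.622 in the linings, 3.58 in total brain and 321 and 194 in the pineal gland. Hs3st2, a heparan sulfate sulfotransferase, read 0.568, 2.65 and 1.99 in the linings, 15.3 in total brain and 116 and 70.8 in the pineal gland. Nt5c3a, a nucleotidase, read 0.969, 0.428 and 1.12 against 19.7 in total brain and 60.2 and 38.5 in the pineal gland, and Lpl, lipoprotein lipase, read 0.264, 0.364 and 0.275 against 1.92, 16.4 and 6.32. For 116 of the 242 genes both pineal arrays were at or below the highest lining, and for 12 both were at or above total brain.

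Of 16 measured endothelial and barrier genes 12 were below total brain in all linings and 0 above, beside 43.4% and 18.9% of all genes, with 1 shared at 4-fold, beside 2.8%. Quantile normalization gave 10 below and scaling to the 75th percentile 9, with 0 shared under either. That gene was Egfl7, a secreted endothelial protein, at 2.50, 0.233 and 2.66 against 12.4 in total brain. Rgs5, a marker of pericytes, was the 1 shared gene of 11 measured mural and fibroblast genes, at 0.698, 0.302 and 1.02 against 5.18, and with scaling to the 75th percentile the list had 0. Arc, an immediate early gene of active neurons, was the 1 shared gene of 14 early and stress genes, 1 gene in each list standing beside 2.8% of all genes, at 0.142, the floor, 2.61 and 2.75 against 16.5.

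The glial lists held no shared gene, beside 2.27% of all genes shared higher and 2.8% shared lower. In each the median of the subfornical organ lay above total brain while that of the subcommissural organ lay below it. Of 22 measured oligodendrocyte and myelin genes 0 were shared at 4-fold, and their median difference from total brain was -2.65 in the subcommissural organ, 0.23 in the subfornical organ and -2.53 in the ependyma. Mog, a myelin protein, read 43.7, 327 and 51.0 against 285 in total brain. The median of 15 astrocyte genes was -2.06, 0.57 and -0.15 in the same order, and Gfap, their intermediate filament, read 9.59, 140 and 39.3 against 28.4. The median of 13 microglia and macrophage genes was -2.05, 0.70 and -0.09, and Csf1r, their growth factor receptor, read 37.5, 263 and 238 against 231. The medians of the oligodendrocyte and astrocyte lists thus lay nearer to the brain level in the subfornical organ than in the subcommissural organ, while 3 of the 15 astrocyte genes were 4-fold or more above total brain there. The subfornical organ also had the lowest median of cilia genes, and the part of these cells in the shared counts was not tested.

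Genes that name single structures gave no shared call either. The 9 measured hypothalamic peptide genes, 4 genes of the subcommissural organ, 9 pineal genes and 5 tanycyte genes held 0 at 4-fold, as did 5 genes of oligodendrocyte precursors and 4 of blood cells. Over all genes 2.27% were shared higher and 2.8% lower, so 0 in lists this short lies near those shares. Hcrt, the hypothalamic peptide orexin, lay above total brain in all linings but with 9.68, 25.1 and 188 against 6.98, 19.4-fold apart between linings. Pineal genes lay 7.36 and 7.28 above total brain at the median in the pineal gland arrays and -0.61, 0.83 and -0.76 from it in the linings. Of 32 measured genes of secretion through the endoplasmic reticulum 11 lay above total brain in all linings and 4 below, and of 23 epithelial junction genes 6 and 5. Over all genes 18.9% lay above in all linings and 43.4% below. Both lists had 0 shared, and 1 shared higher in each under both other scalings. Of 13 housekeeping genes 0 were shared at 4-fold, and their medians were -0.20, -0.49 and -0.71.

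**Figure D5:**
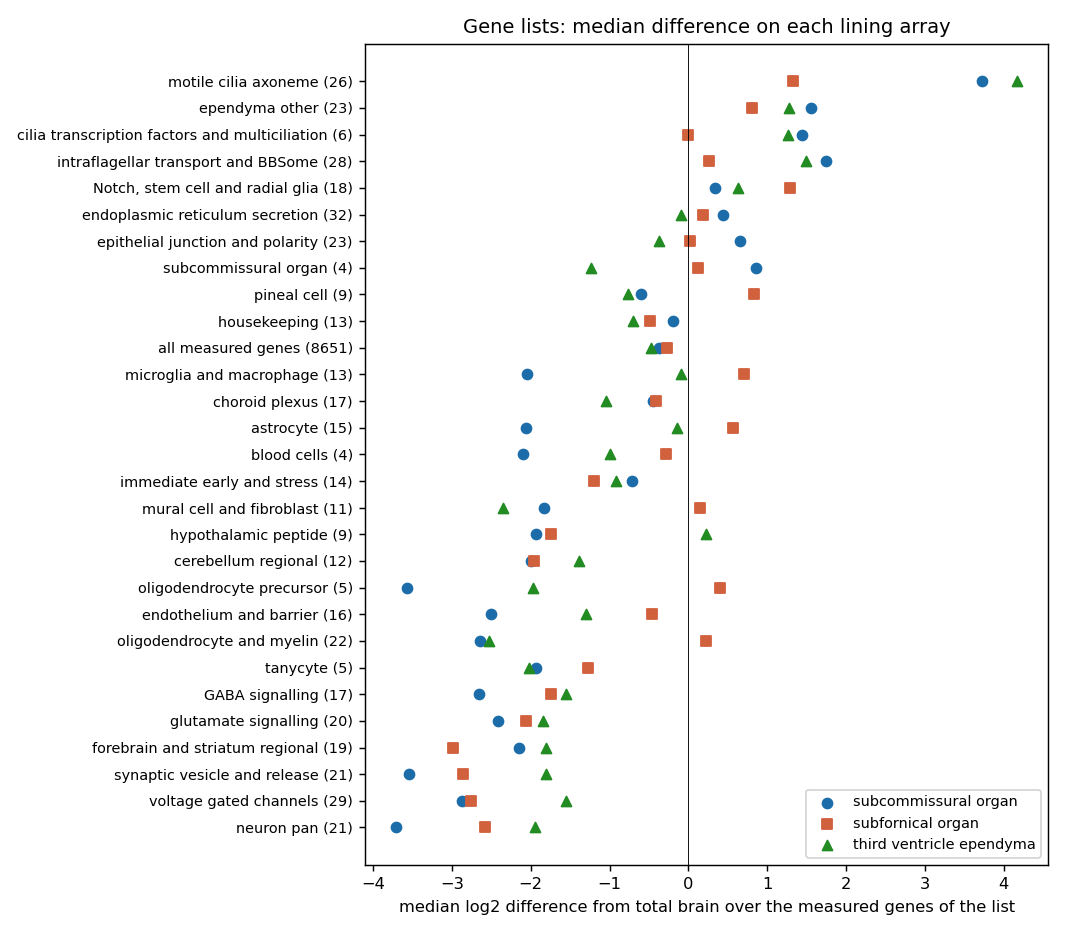
Median difference from total brain in log2 units for each gene list, 1 mark per lining, with the number of measured genes beside each list. Motile cilia genes lie at the right and neuron genes at the left in all 3 linings, while for oligodendrocyte, astrocyte and microglia genes the subfornical organ lies apart from the subcommissural organ.

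Among the genes shared lower, the range over the linings had a median of 1.46 on the log2 scale, but many linings were dim. With values under 1.05 raised to it, the median range was 0.86 among the 242, and 1.22 among the 196 shared higher. The ependyma most often came nearest to total brain, setting the smallest gap for 132, with 65 set by the subfornical organ and 45 by the subcommissural organ. Rab9b, an endosomal GTPase, was among the tightest at 3.61, 3.49 and 3.24 against 33.1, as was Mtmr7, a phosphoinositide phosphatase, at 10.7, 9.39 and 10.6 against 63.6. Ube2ql1, Samd12 and Scnn1b had every lining under 1.05, so their range was not measured. Necab2, a calcium-binding protein, read 0.416 in the subcommissural organ and 14.7 and 14.5 in the other linings against 67.5. Cpne9, Nxph3 and Rbm11 had a wide range on the floored values too, with 2 of their 3 linings under 1.05, and Nxph3, a secreted partner of neurexins, read 0.142, the floor, 0.466 and 7.03 against 32.3.

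Dimness limits many of these gaps. Total brain was under 1.05 for 144 of the 196 genes shared higher, and all 3 linings were under it for 70 of the 242 shared lower. With values under 1.05 raised to it, 102 and 198 genes kept a gap of 4-fold. Another measured probe was present for 28 genes shared higher and 46 shared lower; all further probes placed the linings on the same side for 10 and 38 of them, and some probe placed all linings on the opposite side for 8 and 2.

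At the threshold, with folds taken on the floored values as the limit was, Tbc1d31 and Echdc2 lay just inside on the higher side, at 4.01-fold and 4.03-fold, and Dmac2l and Hook2 just outside, at 3.99-fold and 3.97-fold. The other measured probe of Tbc1d31 placed all linings lower. On the lower side Tmtc3 and Stmn2 lay just inside, at 4.004-fold and 4.012-fold, and Ak5 and Tnnc1 just outside, at 3.98-fold and 3.96-fold.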

How the data were processed

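The authors deposited 1 table of one-colour array intensities for the 6 samples, on a linear scale; the scanner, software and scaling are not given in the sources used here. Missing values (-9999) were left out, leaving 34963 of 35129 probes with a value on all 6 arrays. A fixed probe table named 16865 probes by 1 gene symbol, 165 by several and 18099 by none; 16836 gene identifiers matched RefSeq (GRCr8). Values were floored at the pooled 5th percentile (0.142) and log2-transformed, and each gene was read from its brightest probe by the mean over all 6 arrays. A gene was compared where, on each lining, the higher of lining and brain reached the pooled median (1.05). A gene with brain under 1.05 was thus compared only where every lining lay above the brain. In the same way, a lining under 1.05 was compared only where it lay below the brain. limma 3.58.1 (R 4.3.3; 3 residual degrees of freedom; Benjamini-Hochberg) was run over all 8651 genes and was checked on simulated data. The simulation gave all 3 linings the same shift, so it does not show recovery of genes on which the linings differ. Probes of different genes were not compared in level.

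The genes, lists and tests were chosen with earlier results of these data known. Named were both markers; the 15 widest gaps per direction; up to 4 shared members per list and direction, and members opposite to most of their list; the 2 genes on either side of the threshold; the 5 tightest and 5 widest ranges; and the 5 farthest from the pineal gland. Other list members given as contrast, such as Hydin, Vim, Rfx1, Deup1, Mog and Csf1r, were picked after their values were seen. Alternatives were 2 other scalings, 2 floors, 3 filters, the mean of probes, other fold limits, other limma fits and leaving out each lining. The number of arrays limits the precision.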

Additional observations from a re-analysis of the deposited data

Results flagged for a closer look

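The median differences of 4 gene lists from total brain had opposite signs in 2 linings, by 0.5 or more on the log2 scale each; with 1 array per structure the difference was not tested. Astrocyte genes lay at 0.57 in the subfornical organ and -2.06 in the subcommissural organ. Microglia and macrophage genes lay at 0.70 in the subfornical organ and -2.05 in the subcommissural organ. Pineal cell genes lay at 0.83 in the subfornical organ and -0.76 in the ependyma. Genes of the subcommissural organ, 4 of them measured, lay at 0.86 in the subcommissural organ itself and -1.24 in the ependyma. For scale, the medians of all genes were -0.38 in the subcommissural organ, -0.28 in the subfornical organ and -0.47 in the ependyma.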

How the results depend on the processing

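Of 132 named genes, 80 kept their direction and their side of the 4-fold limit under every alternative; over 1452 pairs of gene and setting, 92 fell inside the limit, 10 moved past it and 1 reversed, Rfx7, from -0.61 to 0.74 with the mean of all probes. Of genes shared lower, 150 were called under quantile normalization and 131 under scaling to the 75th percentile, beside 242. Of genes shared higher, 75 were called with the filter at the 75th percentile and 102 with values under the median raised to it, beside 196. The counts were 515 higher and 1095 lower at 2-fold, and 71 and 47 at 8-fold. Leaving out 1 lining at a time gave 273 to 402 shared higher and 326 to 513 shared lower, both highest without the subfornical organ and partly by construction, since fewer linings must agree. limma called 1 gene higher, Atg101, with a trend in the prior variance and likewise with the filter at the 75th percentile. With 1 mean per structure, so that the pineal pair alone gave the spread (1 residual degree of freedom), it called 485 higher and 1181 lower. Leaving out 1 lining gave 0 to 32 higher and 0 to 6 lower, and the cause of these changes was not tested. Of 319 pairs of list and setting, 13 reversed the sign of the median and 28 others moved. The subcommissural organ list went from -0.03 to 0.13 under quantile normalization, 0.36 under scaling to the 75th percentile, 0.93 with no filter, 0.25 with values under the median raised, and between -0.48 and 1.16 without 1 lining (0.57 without the ependyma). The pineal cell list went from -0.20 to 0.19 under scaling to the 75th percentile and 1.36 with the filter there, and the hypothalamic list from -1.49 to 0.22 with no filter. The epithelial list went from 0.09 to -0.027 with the mean of all probes, and without 1 lining ranged from -0.17 (without the subcommissural organ) to 0.34. Without 1 lining the astrocyte median ranged from -1.18 to 0.15 and the microglia median from -1.07 to 0.29, beside -0.71 and -0.47, both highest without the subcommissural organ. No paired analysis was possible because the structures share no replicate number beyond their single arrays. Signal near background limits the size of many gaps.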

Other observations

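Probes that the table gives no gene held more shared calls than the named genes. Of 7847 such probes bright enough to be compared, 302 (3.85%) lay at least 4-fold higher in all 3 linings than in total brain and 407 (5.19%) at least 4-fold lower. These are counted per probe, so several may read 1 gene.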
